A study of Mus musculus with 12 samples.

Results

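MIWI, the product of the Miwi (Piwil1) gene, is a PIWI-clade Argonaute protein of the mouse male germ line. PIWI proteins carry piRNAs, small guide RNAs that pair with other transcripts, and MIWI binds the pachytene class of piRNAs, which accumulates in spermatocytes and persists in round spermatids. The protein is known both for cleaving RNAs that its piRNAs match and for associating with messenger RNAs of the male germ line. RNA recovered with an antibody against it therefore mixes bound RNA with RNA that sticks to beads, antibody or tube. The immunoprecipitate (IP) from an animal without the protein gives a profile of the second part. Levels scaled to the reads of each column show the make-up of that part and not its amount.

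The comparison described here is the IP enrichment of Miwi +/- over Miwi -/-, gene by gene. It is the difference between IP and input (the RNA before immunoprecipitation) in Miwi +/-, minus the same difference in Miwi -/-. Members were the genes with at least 1 RPKM (reads per kilobase of gene and per 1000000 reads) in at least 2 of the 6 columns of the deposited table. These were 12246 of 20345 listed genes, or 60.2%. The lowest member had a second-highest value of 1.0004 RPKM, and the highest gene left out had 0.9998 RPKM.

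The labelled cell type is late spermatocytes, of 3 genotypes. The study removed ribosomal RNA and sequenced MIWI immunoprecipitates and inputs. The groups of this comparison are the Miwi +/- IP, the Miwi +/- input, the Miwi -/- IP and the Miwi -/- input. Miwi +/- animals keep 1 functional copy of the gene and Miwi -/- animals none; no drug or other allele is named for them. The third genotype, Miwi ADH/-, carries an allele with a mutated catalytic site over the null allele; its IP and input columns entered the choice of members, where 1180 genes (9.64%) reached 1 RPKM in fewer than 2 of the 4 compared columns, and are given beside some named genes. The labels give neither age nor strain, they do not say which samples came from whole testes and which from sorted cells, and they name 2 samples in each group. The table has 1 column per group, so no value below has a replicate, no difference has a test, and intervals cover counting error of the reads only.

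The columns differed in depth. Recovered from the steps of the RPKM values, the listed genes held 1725558 reads in the Miwi +/- IP and 3918947 in its input, against 761525 in the Miwi -/- IP and 3810918 in its input. Taking the smallest column totals that the steps allow, that was 29.3% of all reads in the Miwi +/- IP and 52.3% in its input, against 18.3% in the Miwi -/- IP and 53.7% in its input. Genes with at least 1 RPKM numbered 9942 in the Miwi +/- IP and 7305 in the Miwi -/- IP. Genes carry Ensembl IDs only. The reference table matched 0 of them to a symbol, so pathway lists, cell type markers and the level of the targeted gene are not reported here, the labelled cell type was not checked, and genes are described by level, length and pattern.

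Most genes stood higher in Miwi +/- by this measure. On the log2(RPKM + 1) scale the enrichment had a median of 0.67, with a lower quartile of -0.13 and an upper quartile of 1.51, and 71.4% of the genes lay above 0. In all, 4815 genes (39.3%) were at least 2-fold higher in Miwi +/- and 1171 (9.56%) at least 2-fold lower. At least 4-fold, 1841 genes were higher and 347 lower. The extremes were 6.96 and -8.79.

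The 2 IP columns set directly against each other gave a similar picture. The direct difference, Miwi +/- IP minus Miwi -/- IP, had a median of 0.77, and 5160 genes (42.1%) were at least 2-fold higher in Miwi +/- and 657 (5.37%) at least 2-fold lower. The inputs lay much closer together. Miwi +/- input minus Miwi -/- input had a median of 0.02 and quartiles of -0.28 and 0.39, with 1295 genes (10.6%) at least 2-fold higher in Miwi +/- and 547 (4.47%) at least 2-fold lower.

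The balance of higher and lower genes moved with the scaling of the columns. Of the genes past 2-fold on the deposited scale, 80.4% were higher in the enrichment and 88.7% in the direct difference. With equal column totals over listed genes the shares were 66.7% for the enrichment and 75.3% for the direct difference, and the medians 0.39 and 0.50. That scaling also changed the weight of the pseudocount, so these values hold both changes. The enrichment of ENSMUSG00000046088, with no read in the Miwi -/- IP, was 8.43 with it, against 6.19 on the deposited scale. With median-of-ratios scaling, which brings the median ratio of the columns towards level by construction, the shares were 57.8% and 62.4% and both medians 0.08. Counted from the deposited medians, which forces near-equal numbers, 2617 genes lay at least 2-fold above the median enrichment and 2466 at least 2-fold below. Listed genes held 29.3% of all reads in the Miwi +/- IP and 18.3% in the Miwi -/- IP. Equal totals over listed genes remove that difference by construction. Reads summed over all kept genes, per column total, gave a direct difference of 0.69 and an enrichment of 0.73. What set the shares apart was not tested.

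**Figure D1:**
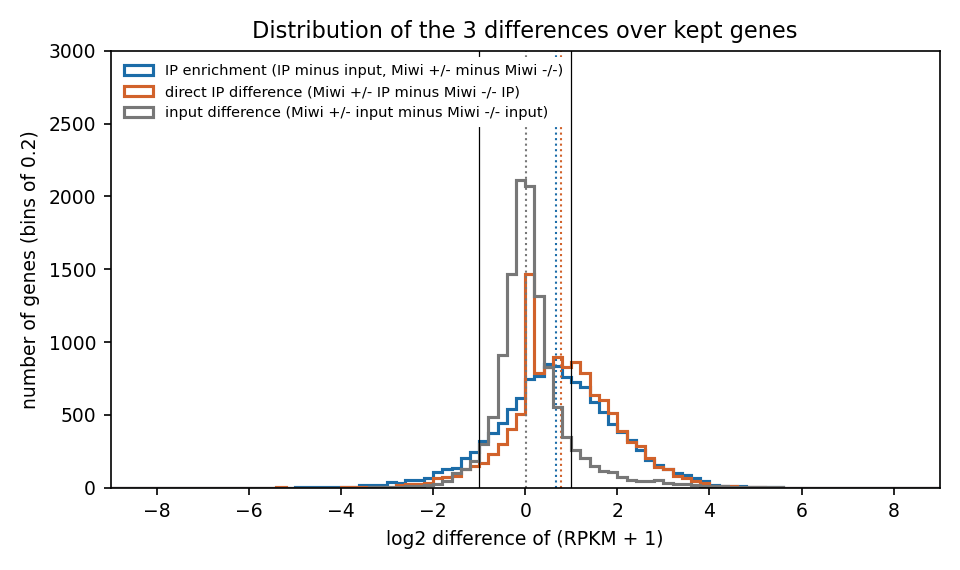
Number of genes (vertical axis, bins of 0.2) by log2 difference of RPKM + 1 (horizontal axis) for the IP enrichment, the direct IP difference and the input difference, over the 12246 kept genes. Dotted lines mark the medians of 0.67, 0.77 and 0.02, black lines the 2-fold limits, and the input difference is the narrowest of the 3.

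The enrichment is the direct difference minus the input difference, so the terms can be read gene by gene. Across genes, which are not replicates, the variance of the enrichment was 1.83, against 1.33 for the direct difference and 0.732 for the input difference. The enrichment shares the IP values with the direct difference and correlated with it at 0.778. With the input difference, which it contains with a minus sign, the correlation was -0.531. These correlations describe the sum and test nothing.

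Most genes higher in the enrichment were higher in the IP itself. Of the 4815 genes, 4031 (83.7%) were also at least 2-fold higher in the direct difference, against 42.1% of all kept genes. As the enrichment contains the direct difference, that share is raised by construction. Another 783 (16.3%) were within 2-fold in the direct difference, and 1 was lower. The 4031 genes had a median of 7.39 RPKM in the Miwi +/- IP and 12.0 in its input, against 0.776 RPKM in the Miwi -/- IP and 12.6 in its input. Their inputs were thus nearly level, at a median difference of -0.09, while the IP columns differed by a median of 1.78. For the 783 others the gap lay in both terms: medians were 2.78 RPKM in the Miwi +/- IP and 3.96 in its input, against 1.40 RPKM in the Miwi -/- IP and 7.62 in its input.

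Of the 1171 genes lower in the enrichment, 477 (40.7%, against 5.37% of all kept genes) were also at least 2-fold lower in the direct difference. A further 584 (49.9%) were within 2-fold, with a median of 1 read in either IP, and 110 (9.39%) were at least 2-fold higher in the Miwi +/- IP. The gap between 83.7% and 40.7% narrowed when both measures were counted from their medians: 1820 of 2617 higher genes (69.5%) and 1299 of 2466 lower genes (52.7%) then kept their side in the direct difference. The inputs of the 1171 genes differed: 605 of the 1171 (51.7%) had an input at least 2-fold higher in Miwi +/-, against 10.6% of all kept genes, a share that the subtraction of the input itself raises. The 110 genes show the pattern at its clearest. They had median levels of 4.07 RPKM in the Miwi +/- IP and 18.4 in its input, against 0.320 RPKM in the Miwi -/- IP and 0.416 in its input, the last on a median of 2 reads. For these genes the sign depends on whether the input is subtracted, with a median enrichment of -1.55 beside a median direct difference of 1.82.

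The 477 genes lower by both measures were few and shallow. Their medians were 0.521 RPKM in the Miwi +/- IP and 3.03 in its input, against 4.62 RPKM in the Miwi -/- IP and 2.49 in its input. That is a median of 4 reads in the Miwi +/- IP and 25 in the Miwi -/- IP. Of the 477 genes, 151 had no read in the Miwi +/- IP, against 1184 (9.67%) of all kept genes. Another 1019 genes were higher in the direct difference but within 2-fold in the enrichment. Of the 1019, 476 had an input at least 2-fold higher in Miwi +/-, against 1295 (10.6%) of all kept genes. The way these genes were chosen raises both counts by construction.

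**Figure D2:**
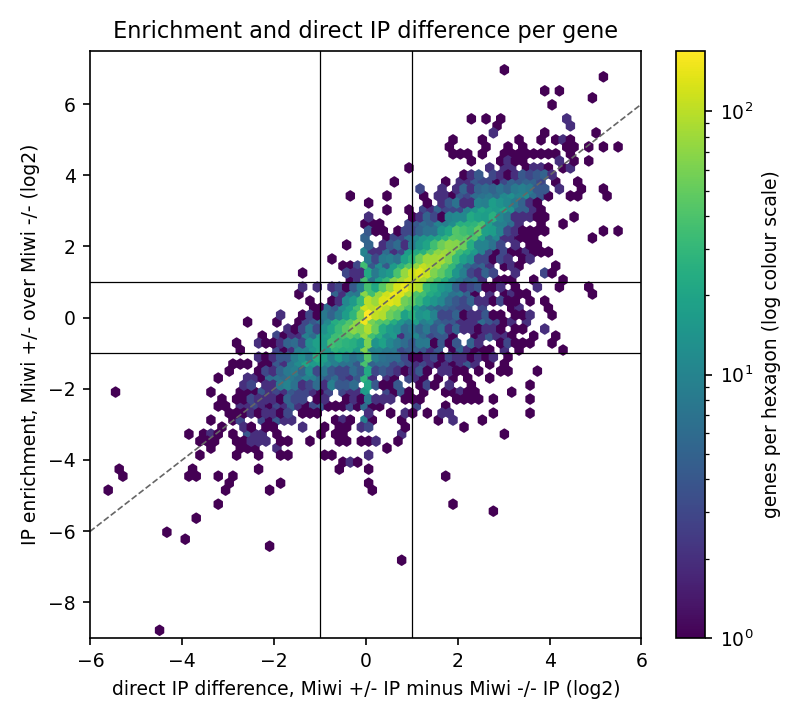
IP enrichment of Miwi +/- over Miwi -/- (vertical axis, log2) against the direct IP difference (horizontal axis, log2) for the 12246 kept genes, coloured by the number of genes per hexagon on a log scale. Black lines mark 2-fold, the dashed line equality; the 4031 genes higher by both measures fill the upper right, the 110 with opposite signs the lower right, and the streak at a direct difference of 0 holds the 824 genes with no read in either IP.

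Few genes stood at least 2-fold above their own input in the Miwi +/- IP, while 2624 kept genes (21.4%) lay above it by any amount. Of the 4815 genes, 354 (7.35%) were at least 2-fold above the Miwi +/- input, against 519 (4.24%) of all kept genes. At least 2-fold below the input were 1621 of the 4815 (33.7%), against 4976 (40.6%) of all kept genes. Over all kept genes the median IP-minus-input value was -0.77 in Miwi +/- and -1.37 in Miwi -/-, beside the shares of reads in listed genes given above, which are lower in each IP than in its input. The median IP-minus-input value of the 4815 genes was -0.57 in Miwi +/- and -2.44 in Miwi -/-, and in Miwi -/- 4380 of them (91.0%) were at least 2-fold below their input. The genes between the 2-fold limits of the enrichment had medians of -0.77 in Miwi +/- and -0.94 in Miwi -/-. The 1171 lower genes had -1.56 in Miwi +/- and 0.00 in Miwi -/-. Between the classes the medians thus spread more widely in the Miwi -/- columns than in the Miwi +/- columns. The classes were cut on the difference of these values, so this is a description of them.

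In reads, the 4815 genes took 40.7% of the listed reads of the Miwi +/- IP and 45.7% of those of its input, against 19.0% of the Miwi -/- IP and 49.8% of its input. The 6260 genes within 2-fold held 57.0% of the Miwi +/- IP and 51.2% of its input, against 75.0% of the Miwi -/- IP and 48.5% of its input. These shares are fractions of each column and do not depend on its total, but the classes were cut on a difference that contains the same columns, so their order is fixed in part by that choice.

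The enrichment contains the input difference with a minus sign, so classes cut on the input difference order it in part by construction. The 175 genes at least 8-fold higher in the Miwi +/- input had a median enrichment of -1.48 beside a median direct difference of 2.26. Of these, 139 (79.4%) were at least 2-fold higher in the Miwi +/- IP, against 42.1% of all kept genes, and 2 were lower. In the enrichment, however, 116 (66.3%) were at least 2-fold lower, against 9.56% of all kept genes. Their Miwi -/- IP rested on a median of 1 read. For the 1120 genes with an input 2-fold to under 8-fold higher in Miwi +/-, the medians were -0.79 for the enrichment and 0.86 for the direct difference. The 547 genes with an input at least 2-fold lower in Miwi +/- had medians of 2.00 for the enrichment and 0.45 for the direct difference. In the 10404 genes whose inputs were under 2-fold apart, both measures had nearly the same median, 0.75 and 0.76. There the enrichment counted 4276 genes higher and 555 lower and the direct difference 4281 higher and 547 lower.

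With a pseudocount of 1 RPKM, both measures were larger in genes with more RNA in the input. The kept genes were put into 10 classes of equal size by their mean RPKM over both inputs. In the lowest class, with a median input level of 0.720 RPKM, the median enrichment was 0.03, 23.2% of genes were at least 2-fold higher and 16.4% at least 2-fold lower. In the highest class, with a median input level of 115 RPKM, the median enrichment was 1.13, 54.7% of genes were higher and 1.31% lower. The median direct difference was 0.13 in the lowest class and 1.04 in the highest.

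Depth moved with these classes, and its part in the trend was not tested. The median number of reads per gene was 5 in the Miwi +/- IP and 0 in the Miwi -/- IP in the lowest class, and 339 in the Miwi +/- IP and 109 in the Miwi -/- IP in the highest. A pseudocount of 1 RPKM also draws low genes towards 0. Reads summed over all genes of a class need no pseudocount and gave an enrichment of 0.13, 0.27, 0.43, 0.61 and 0.64 in the 5 lower classes and 0.71 to 0.79 in the 5 upper ones. With a pseudocount of 0.1 RPKM the median enrichment was 0.21 and 0.50 in the 2 lowest classes and between 1.01 and 1.22 in the 8 others. The median direct difference with that pseudocount was 0.40 in the lowest class, 1.49 in the fifth and between 1.06 and 1.10 in the 3 highest. On these measures the differences did not go on growing with level in the upper classes. The input difference of the summed reads was 0.38 in the lowest class and -0.09 in the highest, and the direct difference of the summed reads was 0.52 in the lowest class, 0.82 in the sixth and 0.62 in the highest.

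**Figure D3:**
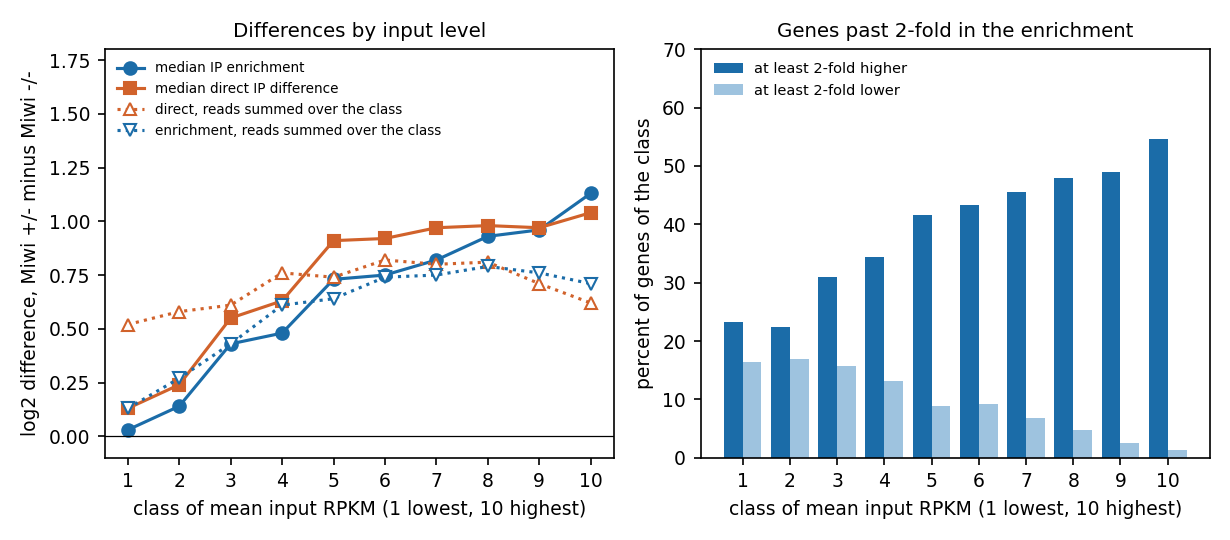
Left, log2 differences of Miwi +/- over Miwi -/- (vertical axis) by class of mean input RPKM (horizontal axis, 1 lowest to 10 highest), as medians over genes (filled) and from reads summed over the class (open). Right, percent of genes of each class at least 2-fold higher or lower in the enrichment; the higher share is 23.2% in class 1 and 54.7% in class 10, the lower share 16.4% and 1.31%.

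Length, which the RPKM steps give, separated the genes mainly by spread. Genes of 300 to under 1000 bases had a median direct difference of 0.91, those of 1000 to under 2000 bases 0.86, those of 2000 to under 4000 bases 0.72 and those of 4000 bases and more 0.61. The median enrichment did not follow that order, at 0.72, 0.74, 0.61 and 0.60 in the same classes. The shortest genes, under 300 bases, had a median direct difference of 0.00, with a median of 1 read in the Miwi +/- IP and 0 in the Miwi -/- IP. The standard deviation of the enrichment across genes was 2.38 under 300 bases and 1.71, 1.30, 1.05 and 0.81 in the successively longer classes. Calls in both directions followed that order from 300 bases upwards: in the class that starts at 300 bases 44.0% of genes were at least 2-fold higher in the enrichment and 15.5% lower, against 29.5% and 2.86% in the class that starts at 4000 bases.

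Among the genes of the 5 upper level classes, where the counts are larger, the length classes kept this order. The median direct difference was 1.31 in the 1452 genes below 1000 bases (300 and up), 1.01 in the 2441 from there to 2000 bases, 0.85 in the 1685 up to 4000 bases and 0.76 in the 381 longest. Median reads in the Miwi +/- IP were 60, 106, 164 and 301 in these classes, and in the Miwi -/- IP 15, 33, 58 and 107. Summed reads did not show the same order: the direct difference was 0.81, 0.62, 0.72 and 0.73.

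**Figure D4:**
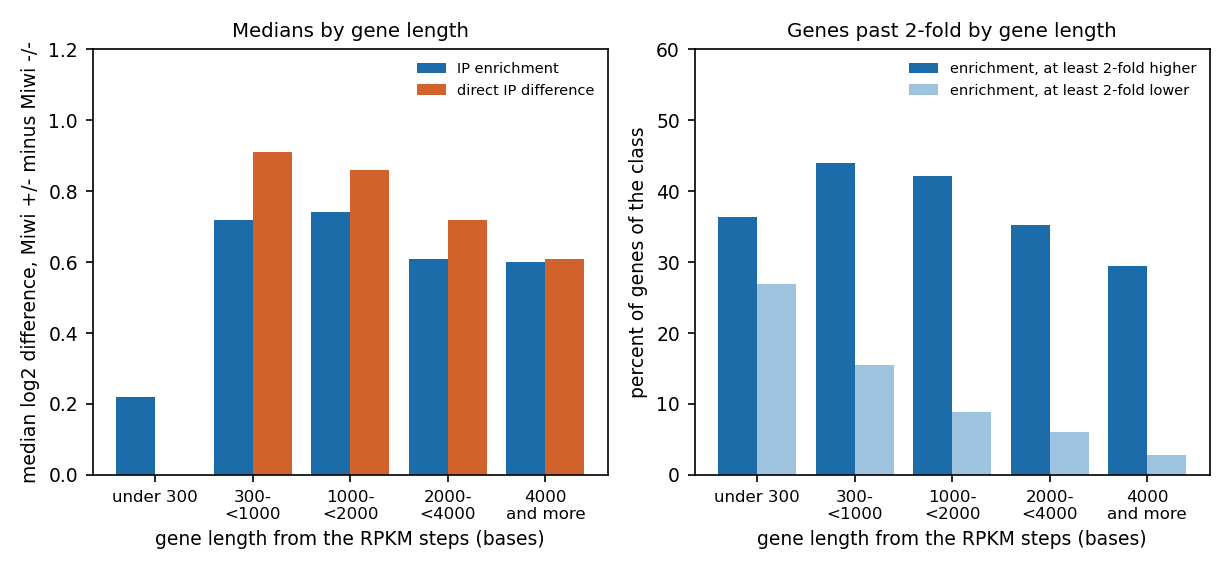
Left, median log2 differences of Miwi +/- over Miwi -/- for the IP enrichment and the direct IP difference (bars) by gene length in bases; the direct median of genes under 300 bases is 0.00. Right, percent of the genes of each class at least 2-fold higher or lower in the enrichment; the lower share is 26.9% under 300 bases and 2.86% at 4000 bases and more.

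Many members had too few reads for a ratio. In the Miwi -/- IP, 2897 kept genes (23.7%) had no read, and 1184 (9.67%) had none in the Miwi +/- IP, with 824 in common. Counting 3 reads per library as the most that a 0 allows, and taking the reads of the other IP as exact, 1326 of the 2897 genes were still at least 2-fold higher in the Miwi +/- IP and 815 at least 4-fold higher, up to at least 31.4-fold. The other way, 205 of the 1184 genes were at least 2-fold lower in the Miwi +/- IP by the same bound and 143 at least 4-fold lower, up to at least 30.6-fold. Genes reaching 1 RPKM in the Miwi +/- IP and not in the Miwi -/- IP numbered 3269 (26.7%), and the reverse 571 (4.66%). A further 2037 (16.6%) reached it in neither IP.

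The better-read members gave the same direction with smaller shares. With at least 10 reads in each of the 4 columns, 5974 genes (48.8%) remained, a set chosen after the data were seen. Of these, 2062 (34.5%) were at least 2-fold higher in the enrichment and 283 (4.74%) lower, and 1962 (32.8%) were higher in the direct difference and 210 (3.52%) lower. The filter itself removes genes past 2-fold, in part by construction. Among all kept genes, the 4815 higher ones had a median of 6 reads in the Miwi -/- IP and the 1171 lower ones 4 in the Miwi +/- IP. The 95% counting interval of the ratio of ratios, from the normal approximation on the log scale, had a median half-width of 0.58 on the log2 scale. It lay wholly above the median of the 5974 genes for 1866 and wholly below it for 1768. These intervals compare the libraries in hand, not the genotypes.

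The most abundant RNAs were largely common to both IPs. Of the 100 genes with the most RPKM in the Miwi +/- IP, 65 were among the 100 highest of the Miwi -/- IP and 59 among the 100 highest of the Miwi +/- input. The 100 highest of the Miwi -/- IP shared 39 with those of the Miwi -/- input. Ranked in the Miwi +/- IP, the 100 genes had a median enrichment of 0.88, with 47 at least 2-fold higher and 1 lower, against 39.3% higher among all kept genes and 54.7% in the highest input class. Ranked in the Miwi -/- IP, they had 0.11, with 15 higher and 6 lower. Choosing genes by the Miwi +/- IP favours high differences and choosing them by the Miwi -/- IP low ones. The first set took 15.9% of the listed reads of the Miwi +/- IP and 20.0% of those of the Miwi -/- IP, the second 15.1% of the Miwi +/- IP and 23.2% of the Miwi -/- IP.

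With no symbols, 2 genes in each direction are named by rank of the enrichment, among genes with at least 5 RPKM in the higher IP, 1 RPKM in both inputs and a direct difference past 2-fold the same way. The leading genes were short and thinly read. ENSMUSG00000046088, of 171 bases, had 28.8 RPKM in the Miwi +/- IP and 12.5 in its input, against 0 in the Miwi -/- IP and 32.1 in its input. These are 29 and 16 reads against 0 and 39. Its enrichment was 6.19 and its direct difference 4.90, values that depend on the pseudocount. The Miwi +/- IP was 6.85 times the level that 3 reads would give in the Miwi -/- IP, and the 95% exact counting interval of the ratio starts at 5.22.

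ENSMUSG00000080463, of 62 bases, had 16.4 RPKM in the Miwi +/- IP and 6.46 in its input, against 0 in the Miwi -/- IP and 25.0 in its input. Its enrichment of 5.92 rested on 6 and 3 reads against 0 and 11, and the Miwi +/- IP was 1.42 times the level of 3 reads in the Miwi -/- IP. The exact interval of the ratio starts at 0.834, so a difference between the IPs was not detectable at this depth. In the Miwi ADH/- columns both genes had less RPKM in the IP than in the input. ENSMUSG00000046088 had 22.7 RPKM (IP, 41 reads) and 34.1 RPKM (input, 32 reads) there. ENSMUSG00000080463 had 3.05 RPKM (IP, 2 reads) and 5.88 RPKM (input, 2 reads).

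On the lower side ENSMUSG00000065196, of 73 bases, had 2.33 RPKM in the Miwi +/- IP and 14.6 in its input, against 49.2 in the Miwi -/- IP and 1.93 in its input. The enrichment was -6.33 and the direct difference -3.92, from 1 and 8 reads against 15 and 1. The Miwi +/- IP to Miwi -/- IP ratio was 0.0472, with a 95% exact counting interval of 0.00112 to 0.307. ENSMUSG00000089752, of 185 bases, had 0 RPKM in the Miwi +/- IP and 35.4 in its input, against 11.7 in the Miwi -/- IP and 7.61 in its input. Its enrichment was -5.74 on 0 and 49 reads against 9 and 10, and the exact interval of the Miwi +/- IP to Miwi -/- IP ratio runs from 0 to 0.359. In the Miwi ADH/- columns ENSMUSG00000065196 had 25.9 RPKM (IP, 20 reads) and 4.99 RPKM (input, 2 reads). ENSMUSG00000089752 had 21.5 RPKM (IP, 42 reads) and 19.7 RPKM (input, 20 reads) there.

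The direct difference gave better-read examples among genes with at least 10 reads in all 4 columns, a choice made after their values were seen. ENSMUSG00000029423 had 199 RPKM (4617 reads) in the Miwi +/- IP and 49.2 in its input, against 4.50 RPKM (74 reads) in the Miwi -/- IP and 6.71 in its input. The Miwi +/- IP was 44.2-fold higher than the Miwi -/- IP, with an exact counting interval of 35.1 to 56.4. The inputs differed too, 7.33-fold (6.29 to 8.58), so that the direct difference of 5.18 left an enrichment of 2.48, the 1019th highest. The direct difference was 4.76 with equal column totals and 4.24 with median-of-ratios scaling. In the Miwi ADH/- columns ENSMUSG00000029423 had 319.7 RPKM (IP) and 50.3 RPKM (input).

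ENSMUSG00000074067, of 2695 bases, had inputs under 2-fold apart and a large difference in the IP. It had 131 RPKM (2072 reads) in the Miwi +/- IP and 23.7 in its input, against 2.76 RPKM (31 reads) in the Miwi -/- IP and 18.5 in its input. The Miwi +/- IP was 47.4-fold higher (33.3 to 69.9) and the Miwi +/- input 1.28-fold higher (1.11 to 1.47). Its enrichment was 4.79, the 30th highest, and the IP was 5.52-fold above the input in Miwi +/- (4.99 to 6.10) but 0.149 times the input in Miwi -/- (0.0995 to 0.215). Its direct difference of 5.13 became 4.84 with equal column totals and 4.27 with median-of-ratios scaling. In the Miwi ADH/- columns this gene stood at 155 RPKM (IP) and 24.3 RPKM (input).

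Genes higher in the background IP existed with good depth as well. ENSMUSG00000075014 had 19.3 RPKM (75 reads) in the Miwi +/- IP and 6.07 in its input, against 220.4 RPKM (607 reads) in the Miwi -/- IP and 8.96 in its input. The ratio of the Miwi +/- IP to the Miwi -/- IP was 0.0876 (0.0679 to 0.111), the direct difference was -3.45 and the enrichment -2.95. ENSMUSG00000081792, of 1061 bases, had 3.84 RPKM (24 reads) in the Miwi +/- IP and 1.89 in its input, against 31.8 RPKM (141 reads) in the Miwi -/- IP and 1.72 in its input. Its ratio was 0.121 (0.0748 to 0.187), its direct difference -2.76 and its enrichment -2.85. Both genes were above their input in both genotypes. IP minus input was 1.52 in Miwi +/- and 4.47 in Miwi -/- for the first, and 0.75 in Miwi +/- and 3.59 in Miwi -/- for the second. With equal column totals the direct difference was -4.16 for the first and -3.65 for the second, and with median-of-ratios scaling -4.56 and -3.88. In the Miwi ADH/- IP the first had 14.5 RPKM and the second 21.2 RPKM.

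**Figure D5:**
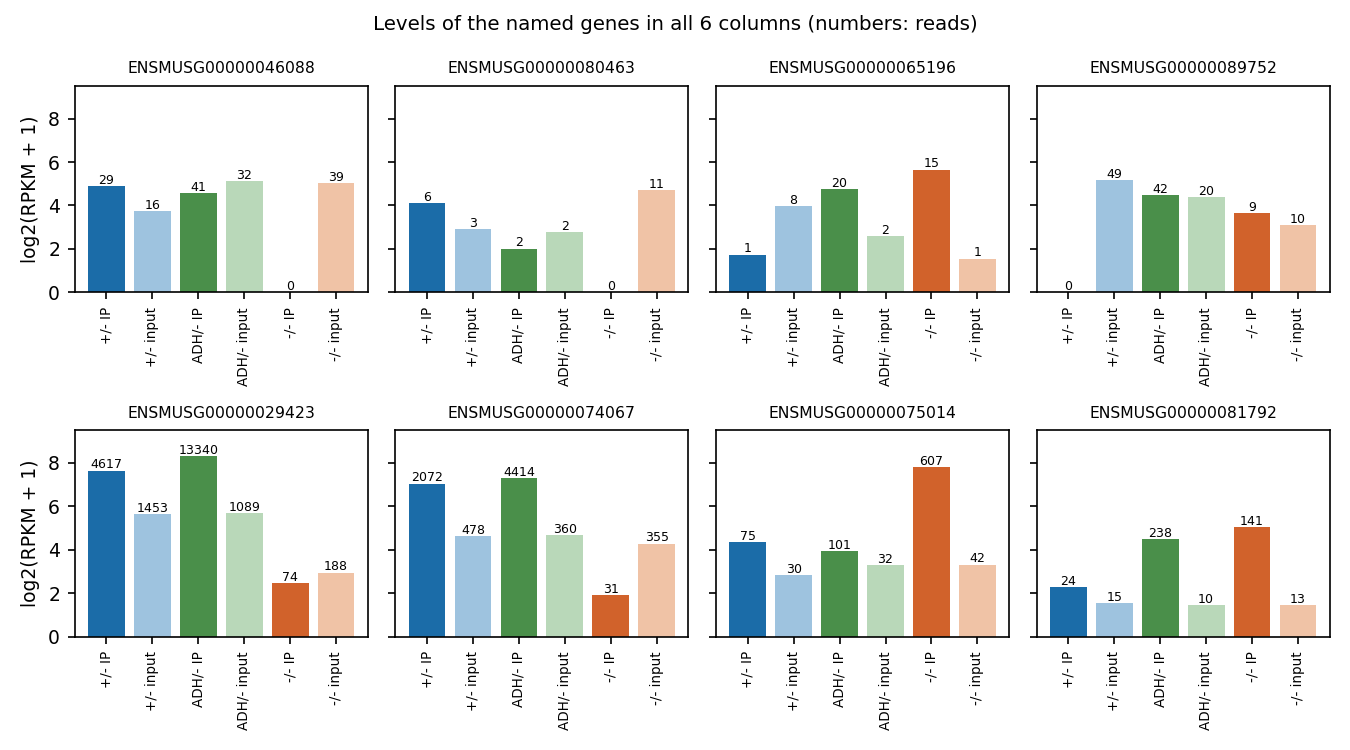
Level of each named gene as log2(RPKM + 1) (vertical axis) in the IP and input columns of Miwi +/-, Miwi ADH/- and Miwi -/- (bars, 1 column each, no error bars), with the number of reads above each bar. The upper row, chosen by enrichment, rests on 0 to 49 reads per column; the lower row, chosen by the direct difference, has at least 10 reads in every column.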

How the data were processed

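The deposited table gives RPKM computed by the authors, 1 column for each of 6 groups of 2 samples. Per the file headers, RPKM is written for the Miwi +/- columns only. The Miwi -/- and Miwi ADH/- columns step in the same proportions, and the same unit was assumed for them, so every difference between genotypes rests on that. The sources do not state whether a column is 1 sample or both pooled. Per the submitters' processing notes, TopHat, Bowtie and the mm9 build were used, in roles that are not stated; for the counting tool and the annotation, nothing is given in the sources used here. All 6 value columns were mapped to groups.

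Differences were computed on log2(RPKM + 1), with genes counted at 2-fold or more. The members and gene lists were chosen with earlier results of these data known. Whole reads were recovered from the step that a gene's values share (within 0.002 reads plus 1e-07 of the read number); 100.0% of values in genes with more than 1 value came out whole, which for genes with few values also happens by chance. Column totals, lengths and shares of all reads follow only up to a common factor. The total used, 5488684 reads for the Miwi ADH/- input, was the only candidate that left at most 100% of reads in listed genes. With it 47.3% of the shorter lengths were whole within 0.05 bases, against 64.4% to 87.4% with the smaller totals, so lengths in bases hold only for this choice. Intervals are 95%, exact (Clopper-Pearson, conditional on summed reads) unless said otherwise, and PCR copies are not independent molecules. The scripts were tested on simulated data. Python 3.11.15, numpy 2.4.6, pandas 2.3.3 and scipy 1.17.1 were used.

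The rule for named genes asked for the largest enrichments with a direct difference the same way and, with no symbols, 2 Ensembl IDs in each direction; the 4 genes of the direct difference were added. Lists by pathway, gene type and chromosome, and fits across replicates, could not be run and are not reported here. Alternatives were other pseudocounts, filters, thresholds and column scalings.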

Additional observations from a re-analysis of the deposited data

Results flagged for a closer look

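Named genes with IP above input in Miwi +/- and below it in Miwi -/-, or the reverse, stand out as differing in direction between the genotypes, each with 1 column per genotype; the difference was not tested. On the deposited scale, ENSMUSG00000046088 (enrichment 6.19), ENSMUSG00000080463 (5.92), ENSMUSG00000074067 (4.79) and ENSMUSG00000029423 (2.48) were above input in Miwi +/- and below it in Miwi -/-. ENSMUSG00000065196 (-6.33) and ENSMUSG00000089752 (-5.74) were below input in Miwi +/- and above it in Miwi -/-. These genes were named for extreme values of the enrichment or the direct difference, and counting error alone spans equality for 3 of the directions. By 95% exact intervals the IP-to-input ratio was 2.54 (0.543 to 15.7) for ENSMUSG00000080463 in Miwi +/-, 0.159 (0.00358 to 1.19) for ENSMUSG00000065196 in Miwi +/- and 1.53 (0.551 to 4.20) for ENSMUSG00000089752 in Miwi -/-. For ENSMUSG00000074067 the IP-minus-input values were 2.41 in Miwi +/- and -2.38 in Miwi -/-. For ENSMUSG00000029423 they were 1.99 in Miwi +/- and -0.49 in Miwi -/-. The median of all kept genes was -0.77 in Miwi +/- and -1.37 in Miwi -/-, so ENSMUSG00000029423 lay above the Miwi -/- median. Its direction in Miwi -/- depends on the column scaling, as listed genes held 18.3% of all reads in that IP and 53.7% in its input. No group had enough columns for a check of single outlying samples.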

How the results depend on the processing

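No paired analysis was possible because the columns carry no replicate number and there is 1 per group; leaving out a replicate was not possible either. In each setting run, more genes were higher than lower in Miwi +/- in all 3 measures, but 43 of 66 alternative counts moved by over 1.5 times. Of 40 alternative values of named genes none reversed in sign, but sizes changed. With pseudocounts of 0.1 and 5 the enrichment of ENSMUSG00000046088 was 9.53 and 3.84, against 6.19. That of ENSMUSG00000089752 was -9.08 and -3.41, against -5.74. The direct difference of ENSMUSG00000029423 was 5.44 and 4.42, against 5.18. Counts follow as higher and lower. Relative to the median they were 2617 and 2466 for the enrichment and 2377 and 1699 for the direct difference. Median-of-ratios scaling gave 2357 lower for the enrichment and 3392 and 2045 for the direct difference, and equal column totals gave 2259 lower for the enrichment and 1606 lower for the direct difference. With a pseudocount of 5 the enrichment had 2198 and 377, the direct difference 2006 and 153 and the inputs 446 and 114; with 0.1, 1029 were lower directly and 977 in the inputs. A minimum of 5 RPKM in 2 columns, which tests 7646 genes, left 518 lower in the enrichment, 266 lower directly, and 681 and 235 in the inputs. A minimum of 1 RPKM in all 4 columns, with 6141 genes, gave 2287 and 307 for the enrichment, 2203 and 235 directly, and 172 and 126 in the inputs. At 1.5-fold, 1889 genes were lower in the enrichment and 1084 directly, with 2255 and 1385 in the inputs. At 4-fold there were 1841 and 347, 1754 and 152, and 454 and 59. With 10 reads in all 4 columns (chosen after seeing the data, 5974 genes) there were 2062 and 283, 1962 and 210, and 143 and 111. Filters test fewer genes, and thresholds and pseudocounts change how many can pass, by construction. The scalings shift whole columns or measures, also by construction. What lies behind the differences that they remove was not tested. For the 2897 genes with no read in the Miwi -/- IP only a bound on the IP ratio can be given.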
